A study of Mus musculus with 12 samples.

Results

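The genes described here encode the NMDA-type and metabotropic glutamate receptors of developing spiral ganglion neurons, which link the hair cells of the cochlea with the cochlear nucleus. The 9 members were taken by symbol: Grin1, Grin2a, Grin2b, Grin2d, Grin3a, Grm4, Grm5, Grm7 and Grm8. All 9 had a row among the 25674 gene identifiers of the deposited table, and 7 of them had enough counts to be tested. RNA was measured in 12 libraries, 6 per genotype, from mouse embryos of either sex at E14.5 on a mixed C57BL/6 and sv129 background. Per the labels, each library held 100 tdTomato-positive cells sorted by flow cytometry from the spiral ganglia of both inner ears of 1 embryo. Control embryos were Neurod1Cre; Rosa26tdTOM. The others, here called Isl1CKO, were Neurod1Cre;Isl1loxP/loxP;Rosa26tdTOM, so that Cre and the red reporter were common to both genotypes and the floxed Isl1 alleles were not. Cre comes from a transgene carrying the regulatory region of Neurod1, so it acts in cells that express or have expressed that gene, and sorting depended on the same Cre. One tag of the labels calls the numbered samples technical replicates while the design text calls them biological replicates. They were treated as separate embryos, and if they were not, the p-values measure technical spread only.

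NMDA receptors are glutamate-gated cation channels built from 4 subunits. GluN1, encoded by Grin1, is required in every such channel, the GluN2 subunits of the Grin2 genes bind glutamate and set the channel's kinetics, and GluN3A of Grin3a binds glycine and lowers calcium entry. Metabotropic receptors are coupled to G proteins. Grm5 belongs to group I, which acts through Gq and phospholipase C beta to release calcium from stores, while Grm4, Grm7 and Grm8 belong to group III, which acts through Gi/o to lower cyclic AMP and is often found on presynaptic terminals. Auditory neurons receive glutamate from hair cells and release it onto cochlear nucleus neurons.

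NMDA receptor subunits share a run of codons at the end of the third membrane segment, which forms the channel's gate and is the best conserved stretch of the family. These 27 bases, or 9 codons, are shown for Grin2a and Grin3a, which were lower in the Isl1CKO libraries, beside Grin1, which was not called. They were read from the longest annotated coding transcript of each gene in GENCODE release M21 on GRCm38, on the minus strand in every case. Capitals mark bases that differ from those of Grin1, of which there were 5 in Grin2a and 8 in Grin3a.
Grin1, exon 15, chr2:25297199-25297225: tcctacactgccaacctggcagccttc
Grin2a, exon 8, chr16:9653447-9653473: AGTtacacAgccaacctggcTgccttc
Grin3a, exon 3, chr4:49770470-49770496: AcAtacacAgcGaacTtggcTgcTGtc

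Group I metabotropic receptors carry a short proline-rich ligand near the end of the protein that binds Homer scaffold proteins. The codons for it, in capitals below, lay 48 codons from the end of the 1203 codons of Grm5 and are shown because Grm5 and Homer2 were both higher in the Isl1CKO libraries. A search of the longest coding transcripts for the same pattern of codons found 0 matches in Grm4, 0 in Grm8 and 1 in Grm7, the last 723 codons from its end.
Grm5, exon 9, plus strand, chr7:88130717-88130743: ctcactCCACCATCGCCCTTCagggac

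The libraries held between 11895603 and 13857480 counts. Levels are given in CPM, counts per 1000000 of the TMM-scaled library total. The floor used here for detection was 3 counts, which corresponded to 0.216 to 0.252 per 1000000 of the unscaled total of a library. All 11 sensory neuron markers examined, among them Tubb3, Pou4f1, Gata3 and Ntrk3, exceeded 3 counts in every library, while 3 of the 11 were lower and 3 higher in the Isl1CKO libraries. Isl1 itself had 1538 ± 217 CPM in controls and 1391 ± 184 CPM in Isl1CKO libraries (SD, n = 6), a log2 change, Isl1CKO over control, of -0.15 ± 0.11 that was not past the threshold (SE; edgeR adjusted p = 0.460). Gene-level counts do not show whether the floxed segment was removed, so the genotype rests on the labels. Isl1CKO libraries 2, 3 and 5 held both Xist, at 62.9 to 132 CPM, and transcripts of 4 Y-linked genes, at means of 35.7 to 87.3 CPM, and no other library held both, which does not match a single embryo per library. Results that rest on these 3 libraries are given with and without them.

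Of the 7 members tested, 3 NMDA receptor genes fell in the Isl1CKO libraries, Grin3a, Grin2a and Grin2d, and 1 metabotropic receptor gene rose, Grm5. Grin1, Grm4 and Grm7 did not pass the test, and Grin2b and Grm8 had too few counts to enter it. Calls were made with edgeR's quasi-likelihood test at a Benjamini-Hochberg adjusted p under 0.05 over all 14813 genes tested. By that rule 5.19% of all tested genes were lower and 5.01% higher in the Isl1CKO libraries, 10.2% together. The members were chosen with earlier results of these data known, so their number of calls is a description only. The median log2 fold change was -0.11 over the 7 tested members and 0.0045 over all tested genes. The ranges of the 2 groups did not overlap for 3 members, Grin3a, Grin2d and Grm5, a property of 6.78% of all tested genes. In pooled cells such as these, fewer cells carrying a transcript and less transcript per cell cannot be told apart.

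**Figure D1:**
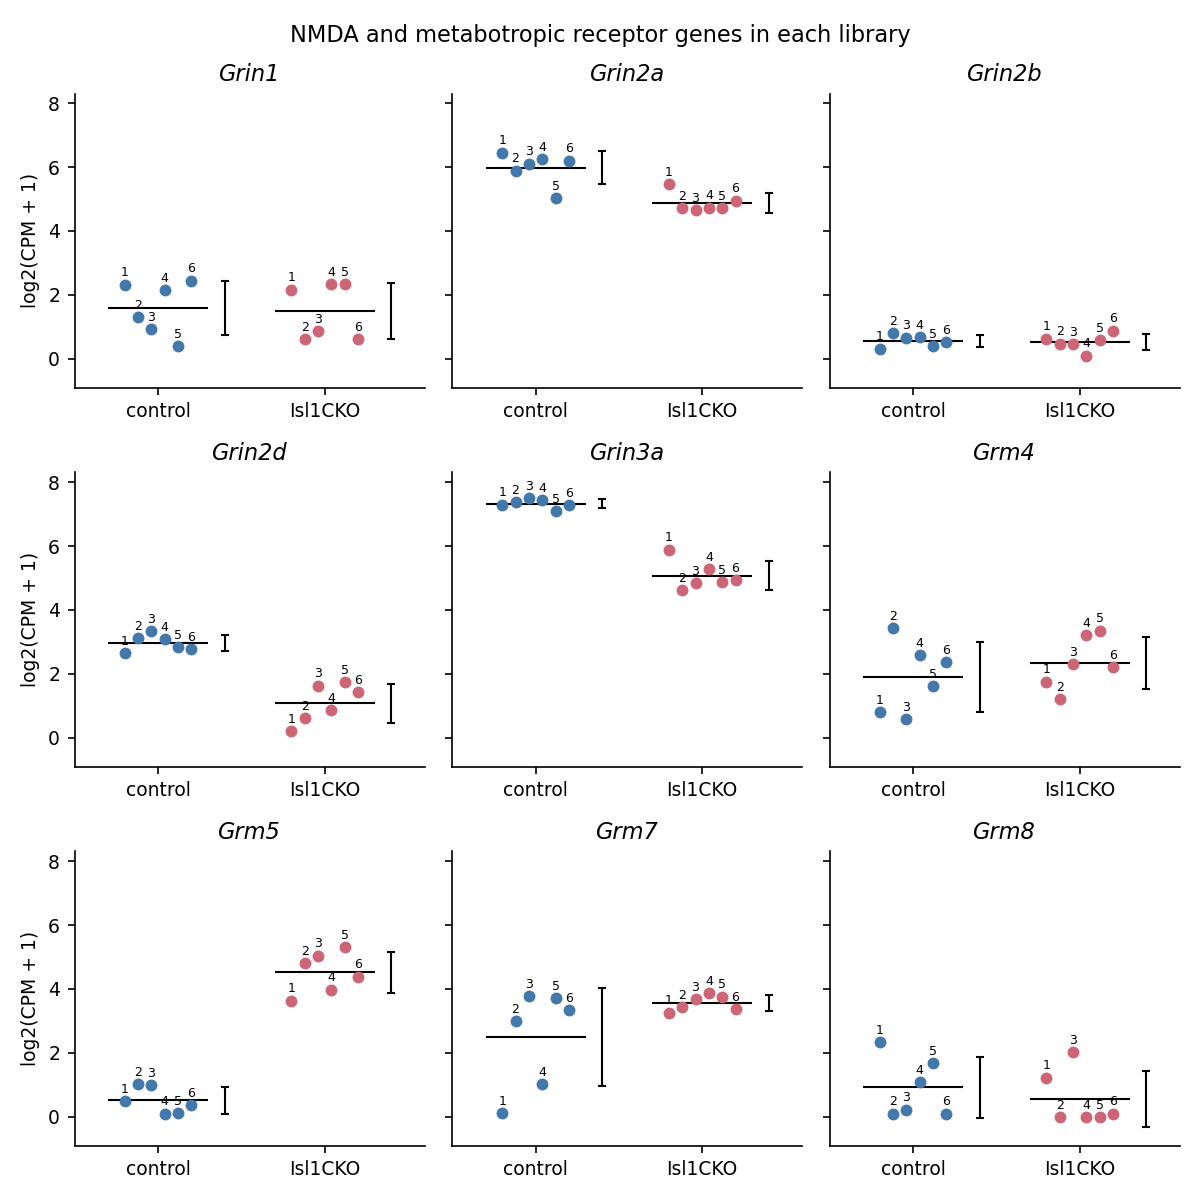
Level of each of the 9 receptor genes in every library, as log2(CPM + 1) on a common vertical axis. Numbers are replicate numbers, horizontal lines are group means and bars are 1 SD (n = 6). The Isl1CKO points lie below all control points for Grin3a and Grin2d and above all of them for Grm5.

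Grin3a (ENSMUSG00000039579, chromosome 4, 49661611 to 49845744, minus strand) was the most abundant member in controls. Its level there was 135 CPM at the lowest, 160 CPM at the median and 179 CPM at the highest. In the Isl1CKO libraries it was 23.5, 28.8 and 58.1 CPM at the lowest, median and highest. Every Isl1CKO library lay well under every control, and Isl1CKO 1 was the highest of its group. Mean levels of 160.1 ± 15.8 and 34.0 ± 12.6 CPM (SD, n = 6) gave a 4.70-fold fall and a log2 change of -2.23 ± 0.19 (SE; edgeR adjusted p = 2.23e-06). This p ranked 44 among all tested genes. Without Isl1CKO 2, 3 and 5 the log2 change was -1.95 ± 0.20 (SE; edgeR adjusted p = 2.21e-04).

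Grin2a (ENSMUSG00000059003, chromosome 16, 9567898 to 9995560, minus strand) encodes GluN2A, a subunit that gives NMDA receptors fast decay and that rises in many neurons as they mature. Control libraries held 31.5 CPM at the lowest, 70.3 CPM at the median and 86.5 CPM at the highest. The Isl1CKO libraries held 24.2, 25.5 and 43.2 CPM. The groups overlapped because control 5, with 31.5 CPM, lay under Isl1CKO 1, with 43.2 CPM, while the remaining 5 Isl1CKO libraries lay under every control. Mean levels of 65.2 ± 18.9 and 28.9 ± 7.25 CPM (SD, n = 6) gave a 2.25-fold fall and a log2 change of -1.17 ± 0.22 (SE; edgeR adjusted p = 0.00241). Without Isl1CKO 2, 3 and 5 the call was lost, the log2 change being -0.99 ± 0.29 (SE; edgeR adjusted p = 0.0824).

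Grin2d (ENSMUSG00000002771, chromosome 7, 45831883 to 45878378, minus strand) encodes GluN2D, a subunit with slow decay and weak magnesium block that is typical of embryonic neurons. It had 64 to 110 counts in the control libraries and 2 to 32 counts in the Isl1CKO libraries. In CPM the lowest, median and highest controls were 5.32, 6.87 and 9.18, against 0.158, 1.25 and 2.33 in the Isl1CKO libraries. The groups were apart, and Isl1CKO 1, with 2 counts, was the lowest library. Mean levels of 6.96 ± 1.44 and 1.27 ± 0.890 CPM (SD, n = 6) gave a 5.43-fold fall and a log2 change of -2.44 ± 0.51 (SE; edgeR adjusted p = 0.00564). Without Isl1CKO 2, 3 and 5 the log2 change was -2.96 ± 0.62 (SE; edgeR adjusted p = 0.0185). Exons of Gm45441 overlap those of Grin2d on the opposite strand, and that gene had at most 11 counts in any library.

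Grin1 (ENSMUSG00000026959, chromosome 2, 25291181 to 25319187, minus strand), the gene of the required subunit, was scarce in both groups. Control libraries held 4 to 61 counts and Isl1CKO libraries 7 to 56, and the ranges overlapped almost fully. In CPM the control libraries ran from 0.317 through a median of 2.44 to 4.47, and the Isl1CKO libraries from 0.533 through 2.16 to 4.08. The log2 change was -0.11 ± 0.70 (SE; edgeR adjusted p = 0.949), and with glial and macrophage marker levels as covariates it was -1.02 (edgeR adjusted p = 0.563). With an SE of 0.70, a change of the size seen for Grin2a (log2 change of -1.17) could have been missed for this gene. The power to detect it was not computed. Exons of Grin1 overlap Grin1os on the opposite strand, and Grin1os had no row in the deposited table. The use of strand in counting is not given in the sources used here, so reads of the pair cannot be told apart.

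Grin2b (ENSMUSG00000030209, chromosome 6, 135713233 to 136173511, minus strand), which encodes the GluN2B subunit that is prominent in the embryonic forebrain, stayed near the floor. It had 3 to 10 counts in controls and 1 to 11 in Isl1CKO libraries, with means of 0.487 ± 0.186 and 0.457 ± 0.251 CPM (SD, n = 6). With no expression filter its log2 change was -0.096 ± 0.64 (SE; edgeR adjusted p = 0.965).

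**Figure D2:**
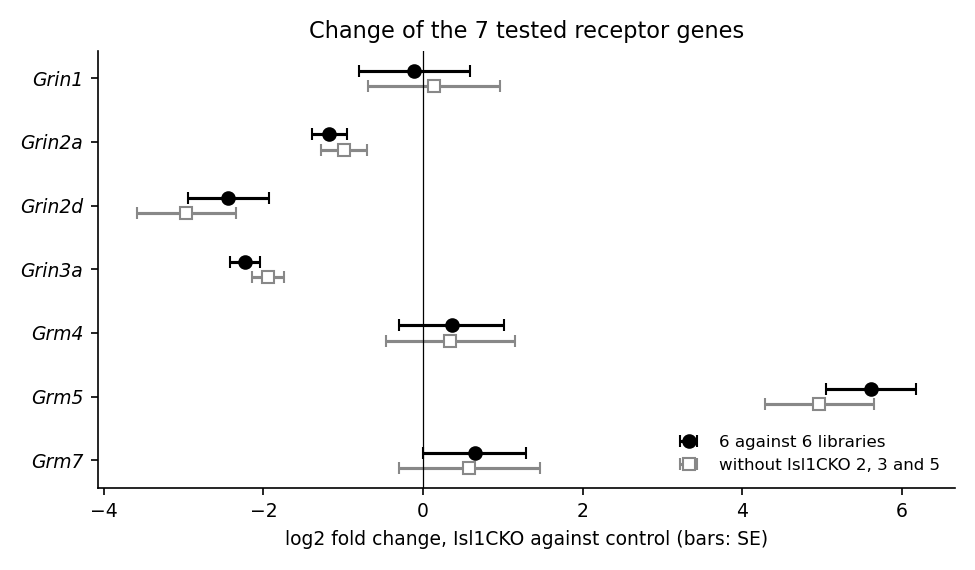
Log2 fold change of the 7 tested receptor genes in Isl1CKO against control libraries, with standard errors as bars. Black circles use all 12 libraries and open squares leave out Isl1CKO 2, 3 and 5. Grin2a, Grin2d and Grin3a lie left of 0 and Grm5 far to the right in both, while Grin1 changes sides.

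Shares of the Grin2 transcripts are given as a description, with no test. Length was taken as the summed exon length of each gene over all annotated transcripts, so a gene with long alternative ends is scaled down by it. Among length-scaled counts of Grin2a, Grin2b and Grin2d, the share of Grin2a ran from 65.1% to 85.6% in controls and from 79.2% to 98.1% in Isl1CKO libraries. Grin2c, which did not pass the expression filter, was left out of these shares. In Isl1CKO 1, the library at 98.1%, Grin2c had 13 counts, or 0.204 CPM per kb, above Grin2d at 0.0238 CPM per kb. The share of Grin2d averaged 23.4% ± 7.21 in controls and 10.9% ± 7.49 in Isl1CKO libraries (SD, n = 6), a difference of -12.5 percentage points. The ranges overlapped through Isl1CKO 3 and 5, at 18.9% and 19.6%. The share without Isl1CKO 2, 3 and 5 was 7.27% ± 5.99 (SD, n = 3) and lay below every control, a difference of -16.1 percentage points. On counts not divided by length the difference over all libraries was -5.85 percentage points. The share of Grin2b never exceeded 1.73%. Grin2a was thus the main Grin2 transcript in all 12 libraries. The ratio of Grin3a to Grin2a, in CPM per kb of exon, was 2.63 to 6.24 in controls and 1.36 to 2.14 in Isl1CKO libraries, with no overlap. Grin3a exceeded Grin2a per kb in each of the 12 libraries. Without division by length the ratio was 1.80 to 4.27 in controls and 0.929 to 1.46 in Isl1CKO libraries, again with no overlap. Grin2a was then the higher of the pair in Isl1CKO 2 and 6, at ratios of 0.929 and 0.982.

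Grm5 (ENSMUSG00000049583, chromosome 7, 87584168 to 88134907, plus strand) rose from near the floor. Control libraries held 1 to 14 counts and Isl1CKO libraries 144 to 528. In CPM the lowest, median and highest controls were 0.0741, 0.354 and 1.04, against 11.4, 23.4 and 38.5 in the Isl1CKO libraries. All Isl1CKO libraries exceeded all controls, and the 3 highest were Isl1CKO 2, 3 and 5. Mean levels of 0.483 ± 0.435 and 23.9 ± 10.4 CPM (SD, n = 6) gave a fitted 48.8-fold rise and a log2 change of 5.61 ± 0.56 (SE; edgeR adjusted p = 1.16e-05). Without Isl1CKO 2, 3 and 5 the log2 change was 4.96 ± 0.68 (SE; edgeR adjusted p = 0.00159), and with glial and macrophage marker levels as covariates it was 6.68 (edgeR adjusted p = 6.48e-06).

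The 3 group III genes showed no call and varied widely between libraries of a group. Grm7 (ENSMUSG00000056755, chromosome 6, 110645581 to 111567230, plus strand) had 1 count in control 1 and 14 in control 4, but 94 to 154 in the other control libraries. The 6 Isl1CKO libraries lay close together at 8.55 to 13.6 CPM, their mean being 11.0 ± 1.99 CPM and that of the controls 7.0 ± 5.41 CPM (SD, n = 6). Its log2 change was 0.65 ± 0.65 (SE; edgeR adjusted p = 0.608). It was 0.38 without control 1, 0.41 without control 4, 1.56 with the marker covariates and 1.98 with limma-voom, none of them past the threshold. Grm4 (ENSMUSG00000063239, chromosome 17, 27422387 to 27521403, minus strand) ran from 0.501 to 9.77 CPM in controls and from 1.32 to 9.19 CPM in Isl1CKO libraries. Its log2 change was 0.36 ± 0.66 (SE; edgeR adjusted p = 0.794) and ran from 0.067 without Isl1CKO 5 to 0.92 without control 2.

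Grm8 (ENSMUSG00000024211, chromosome 6, 27275119 to 28135178, minus strand) was present in some libraries and absent from others. It had 49, 15 and 28 counts in controls 1, 4 and 5 and at most 2 in the other controls. It had 17 and 41 counts in Isl1CKO 1 and 3 and at most 1 in the other Isl1CKO libraries. Presence and absence therefore occurred within both groups, and the gene was not tested. With no expression filter its log2 change was -0.77 ± 1.29 (SE; edgeR adjusted p = 0.829).

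Scaled to exon length, the order of the members in controls was Grin3a, Grin2a, Grm7, Grin2d, Grm4, Grin1, Grm8, Grm5 and Grin2b. Grin3a stood at 13.0 ± 1.29 CPM per kb, clear of Grin2a at 3.64 ± 1.05 CPM per kb (SD, n = 6). Every other pair of neighbours in this order had overlapping ranges. In the Isl1CKO libraries the order was Grin3a, Grm5, Grm7, Grin2a, Grm4, Grin1, Grin2d, Grm8 and Grin2b, and the ranges of all neighbours overlapped. There Grin3a averaged 2.77 ± 1.03, Grm5 2.34 ± 1.02 and Grm7 1.86 ± 0.337 CPM per kb (SD, n = 6). Grm5 exceeded Grin3a in Isl1CKO 2, 3 and 5, at 2.63, 3.12 and 3.76 against 1.92, 2.25 and 2.30 CPM per kb. Grin3a exceeded Grm5 in Isl1CKO 1, 4 and 6, at 4.73, 3.05 and 2.39 against 1.11, 1.44 and 1.95 CPM per kb. The level of Grm5 in controls had been 0.0471 ± 0.0424 CPM per kb, so that it went from the 8th to the 2nd place. It was 4th without Isl1CKO 2, 3 and 5, at 1.502 ± 0.421 CPM per kb (SD, n = 3), after Grin3a, Grin2a and Grm7. Grin1, at 0.250 ± 0.180 CPM per kb in controls and 0.232 ± 0.184 in Isl1CKO libraries (SD, n = 6), stayed 6th in both.

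**Figure D3:**
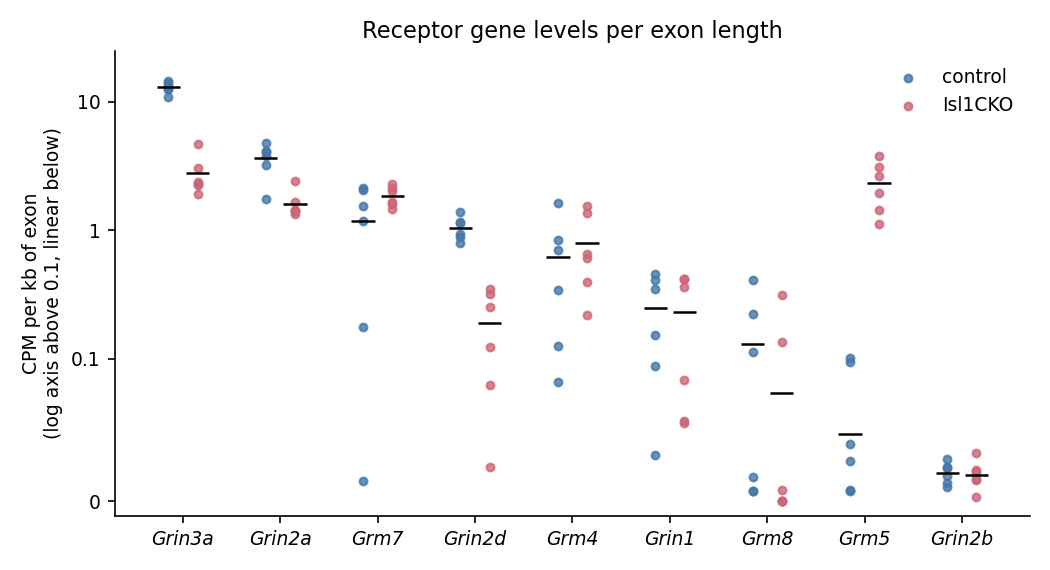
Level of each receptor gene per kb of exon in the control and Isl1CKO libraries, ordered by the control mean. The axis is logarithmic above 0.1 and linear below, points are libraries and black lines are means (n = 6). Grin3a has the highest mean in both groups, and the mean of Grm5 moves from 0.0471 to 2.34 CPM per kb. In Isl1CKO 2, 3 and 5 Grm5 lies above Grin3a.

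Other genes of both receptor families had low counts. Grin2c, Grin3b, Grm2, Grm3 and Grm6 each had a row, and none passed the expression filter. The largest count of any of them in a control library was 22, for Grm3, and in an Isl1CKO library 48, for Grm2. Grm2 exceeded the floor of 3 counts in 5 Isl1CKO libraries and in 0 controls, and its values are given under Other observations.

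Genes whose products act with the receptors were described through 3 lists. Of 32 NMDA receptor partner genes, which encode scaffolds, kinases and trafficking proteins, 25 were tested, of which 0 were lower and 2 higher, 8% against 10.2% of all tested genes. Their median log2 fold change was 0.16. Cask, a scaffold that takes part in NMDA receptor transport, went from 192 ± 12.8 to 251 ± 29.7 CPM (SD, n = 6; log2 fold change 0.38, edgeR adjusted p = 0.00849). Camk2g, a subunit of calcium/calmodulin-dependent kinase II, went from 151 ± 20.4 to 202 ± 27.3 CPM (SD, n = 6; log2 fold change 0.42, edgeR adjusted p = 0.0231). Neither call was kept without Isl1CKO 2, 3 and 5 (edgeR adjusted p of 0.116 and 0.303), and the count was then 0. The call of Camk2g was also lost without control 5, without control 6 or without Isl1CKO 2, and without control 3 the list had 4 calls. The postsynaptic density scaffold gene Dlg4 was at 23.1 ± 6.87 and 25.7 ± 6.41 CPM (SD, n = 6; edgeR adjusted p = 0.733).

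Of 38 metabotropic receptor partner genes, 30 were tested, of which 4 were lower and 2 higher, 20% together against 10.2% of all tested genes. Their median log2 fold change was -0.019, against 0.0045 over all tested genes. The 2 that rose belong to the group I pathway of Grm5, as do Plcb3 and Prkcb among those that fell. Plcb1, a phospholipase C beta that Gq activates, was at 0.0740, 0.458 and 1.68 CPM at the lowest, median and highest in controls and at 5.90, 21.9 and 26.1 CPM in Isl1CKO libraries. The groups did not overlap, and Isl1CKO 2 and 6 were the lowest of their group at 5.90 and 6.40 CPM. Its log2 change was 4.62 ± 0.61 (SE; edgeR adjusted p = 1.54e-04). Homer2, which encodes a scaffold that binds the Grm5 stretch printed above, was at 8.95, 12.5 and 20.5 CPM at the lowest, median and highest in controls and at 27.0, 34.8 and 79.7 CPM in Isl1CKO libraries. All Isl1CKO libraries again exceeded all controls, Isl1CKO 3 most of all, with a log2 change of 1.66 ± 0.29 (SE; edgeR adjusted p = 0.00143). Both calls held without Isl1CKO 2, 3 and 5 (edgeR adjusted p of 0.00259 for Plcb1 and 0.0149 for Homer2).

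**Figure D4:**
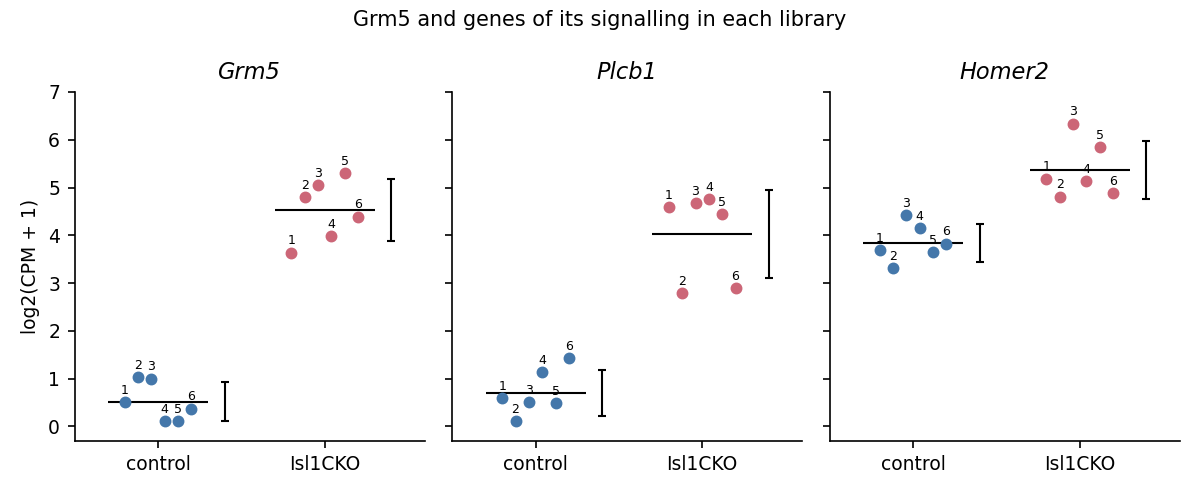
Level of Grm5, of the phospholipase gene Plcb1 and of the scaffold gene Homer2 in every library, as log2(CPM + 1), with group means as lines and 1 SD as bars (n = 6). For each gene the lowest Isl1CKO library lies above the highest control.

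Other genes of the same steps were not called or fell. Homer1 and Homer3 showed log2 changes of -0.025 ± 0.21 and -0.011 ± 0.23 (SE; adjusted p of 0.962 and 0.985 with edgeR). Gnaq and Gna11, which encode the alpha subunits of the Gq class, showed log2 changes of 0.32 ± 0.11 and 0.20 ± 0.097 (SE; adjusted p of 0.0962 and 0.230 with edgeR). Plcb3, another phospholipase C beta, fell from 39.4 ± 12.0 to 17.1 ± 8.47 CPM (SD, n = 6; log2 fold change -1.21, edgeR adjusted p = 0.0229), a call lost without control 3 or without Isl1CKO 6 at -1.09 and -1.15 on the log2 scale (adjusted p of 0.0502 and 0.0531 with edgeR). The log2 change of Plcb4 was -0.33 (edgeR adjusted p = 0.130). Prkcb, a protein kinase C activated downstream of these enzymes, fell from 24.0 ± 5.98 to 10.2 ± 2.74 CPM (SD, n = 6; log2 fold change -1.24, edgeR adjusted p = 0.00386).

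On the side of the group III receptors, Gnao1, the alpha subunit of Go, fell from 251 ± 35.9 to 185 ± 24.8 CPM (SD, n = 6; log2 fold change -0.44, edgeR adjusted p = 0.0157). Adcy6, an adenylyl cyclase that Gi inhibits, fell from 6.60 ± 1.44 to 3.0 ± 0.615 CPM (SD, n = 6; log2 fold change -1.14, edgeR adjusted p = 0.0205). Without Isl1CKO 2, 3 and 5 neither was past the threshold, at -0.37 and -1.14 on the log2 scale (adjusted p of 0.173 and 0.127 with edgeR). With glial and macrophage marker levels as covariates neither was, at -0.46 and -0.91 (edgeR adjusted p of 0.0928 and 0.204).

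Of 24 genes for the supply of glutamate and of the NMDA receptor co-agonists glycine and D-serine, 19 were tested. Of these 1 was lower and 3 were higher, 21.1% together against 10.2% of all tested genes. Their median log2 fold change was 0.42, against 0.0045 over all tested genes. Slc17a6, which encodes a transporter that loads glutamate into synaptic vesicles, rose 1.83-fold, from 365 ± 71.7 to 667 ± 34.7 CPM (SD, n = 6). Its ranges of 263 to 474 and 606 to 696 CPM did not overlap (log2 fold change 0.87, edgeR adjusted p = 1.14e-04). Slc1a2, a plasma membrane glutamate transporter best known from astrocytes, rose from 16.5 ± 5.58 to 42.3 ± 12.4 CPM (SD, n = 6; log2 fold change 1.36, edgeR adjusted p = 0.00264). Got1, a transaminase that links glutamate and aspartate, fell from 76.6 ± 10.1 to 43.8 ± 11.9 CPM (SD, n = 6; log2 fold change -0.81, edgeR adjusted p = 0.00668). Slc1a6, another transporter of that family, went from 0.598 ± 0.481 to 2.82 ± 1.99 CPM (SD, n = 6; log2 fold change 2.22, edgeR adjusted p = 0.0321). Its call was lost without Isl1CKO 2, 3 and 5 at a log2 change of 1.51 (edgeR adjusted p = 0.358). The call was also lost without any single one of controls 3 to 6 or Isl1CKO 1, 2 or 5, at 1.77 to 2.27. Slc1a3, at 11.2 ± 4.59 and 2.92 ± 2.54 CPM (SD, n = 6), was not called with all libraries (log2 fold change -1.93, edgeR adjusted p = 0.0619). Without Isl1CKO 2, 3 and 5 Slc1a3 was called lower, at -3.62 (edgeR adjusted p = 0.0116).

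**Figure D5:**
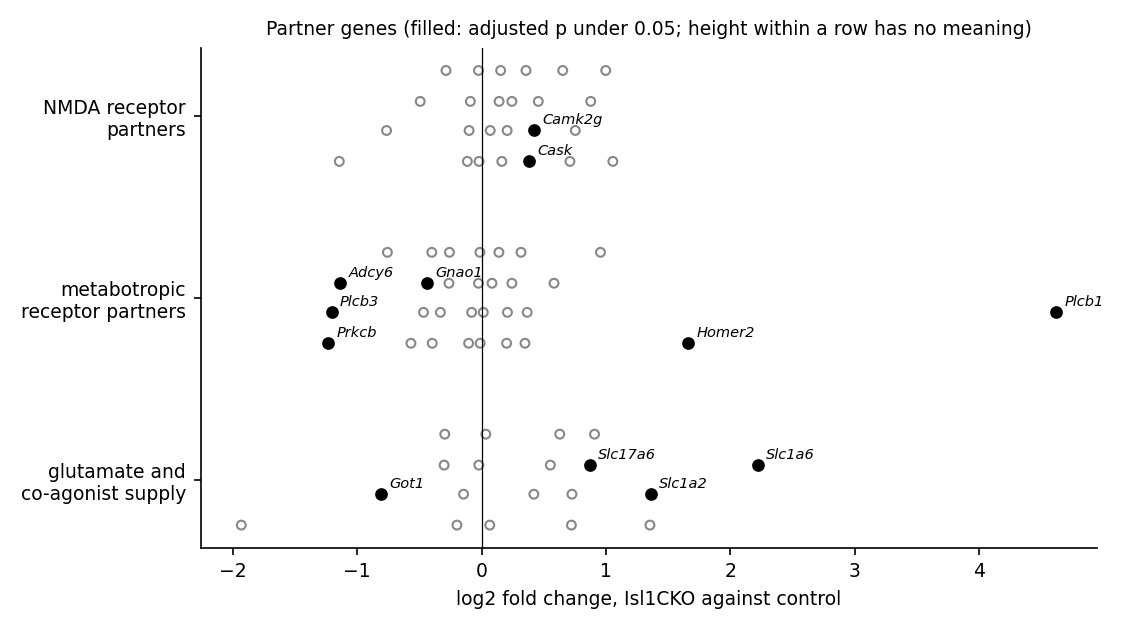
Log2 fold change, Isl1CKO against control, of each tested gene in the 3 lists of receptor partners and glutamate supply. Filled points passed an adjusted p of 0.05 and carry their names, and height within a row has no meaning. Plcb1 stands farthest to the right at 4.62.

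Markers of other cell types were read beside these results. Of the listed markers all were in the table except 1 of 8 hair cell, 1 of 4 endothelial and 4 of 6 red blood cell genes. The summed level of 9 Schwann and satellite glia markers was 31.9 to 186 CPM in controls and 35.0 to 260 CPM in Isl1CKO libraries, with 0 of 6 tested genes called. That of 9 macrophage markers was 1.85 to 358 and 1.24 to 744 CPM, with 0 of 9 called. Its median was 7.76 CPM in controls and 120 CPM in Isl1CKO libraries. Mesenchyme markers summed to 38.4 to 84.3 and 70.3 to 121 CPM, with 2 of 4 tested genes higher, and hair cell markers to 253 to 538 and 293 to 580 CPM, with 1 of 4 lower. Otic epithelium markers summed to 46.4 to 77.7 and 9.41 to 51.6 CPM, with 1 of 3 lower, while endothelial and red blood cell markers stayed under 29.6 and 5.87 CPM in total. No marker in the table was at or under 3 counts in all 12 libraries, and the ranges of both groups overlapped for each list. With the glial and macrophage levels as covariates all 4 member calls held, and the log2 fold changes were -2.42 for Grin3a, -1.34 for Grin2a and -1.93 for Grin2d (edgeR adjusted p of 4.93e-05, 0.00846 and 0.0443). The part of mesenchyme, hair cell and otic epithelium levels in the results was not tested.

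The genes with the pattern most like that of Grin3a over the 12 libraries, by Pearson's r of log2(CPM + 1) among all tested genes, were Shh, Alcam and Msc, with r of 0.985, 0.982 and 0.982. For Grm5 they were Mab21l1, Lhx1 and Brinp3, with r of 0.976, 0.974 and 0.974. The libraries form 2 groups that differ in all 6 genes, so r over all 12 contains that difference. Within the 6 controls and the 6 Isl1CKO libraries, r with Grin3a was 0.839 and 0.879 for Shh, 0.769 and 0.747 for Alcam, and 0.555 and 0.741 for Msc. With Grm5 it was 0.561 and 0.567 for Mab21l1, 0.593 and 0.514 for Lhx1, and -0.501 and 0.645 for Brinp3. In controls Grm5 had only 1 to 14 counts per library and Brinp3 a mean of 0.416 CPM, so r with Grm5 there is open to counting error. All values of r are descriptions over libraries that share their sort and preparation.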

How the data were processed

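The authors deposited 1 table of raw read counts by gene for the 12 libraries. The submitters' processing notes name GRCm38.p6, cutadapt 1.18, Bowtie 1.2.2, STAR 2.7.0c and featureCounts, without settings. The annotation and the use of strand are not given in the sources used here. A symbol was matched to 25620 of 25674 identifiers, and 0 columns were left unmapped. Coordinates and exon lengths are those of GENCODE release M21 on GRCm38. Floors cover counting error only, since amplified reads without molecular identifiers are not independent molecules.

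Genes were kept by filterByExpr (minimum count 10), scaled with TMM and tested with edgeR 4.0.16 under R 4.3.3, using the robust quasi-likelihood test with no covariate and Benjamini-Hochberg adjustment over all tested genes. The standard error is the absolute log2 fold change over the square root of F. Settings are compared in the closing section, among them DESeq2 1.42.0 and limma 3.58.1. The tests were also run on simulated counts, and no result here rests on that run. Members, lists and tests were chosen with earlier results of these data known. Genes named outside the members are, from each list, the 4 with the smallest p among those called and direct partners of a called member, and the 3 genes most similar to Grin3a and to Grm5. Adcy6, Plcb3, Plcb4, Dlg4, Slc1a3 and Elfn1 were chosen after their values were seen. No 2 libraries of a group agreed within sampling noise. Some sequences and 1 further gene are not reported here.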

Additional observations from a re-analysis of the deposited data

Results flagged for a closer look

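Among 18 group values of the members (9 genes in 2 groups), 1 had a library far from the other 5, where chance gives about 0.9. In Isl1CKO 1 the level of Grin2a was 43.2 CPM, against 24.2 to 29.9 CPM in the other Isl1CKO libraries. Without that library the log2 fold change of Grin2a was -1.33 (edgeR adjusted p = 9.02e-04).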

How the results depend on the processing

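The direction and call of Grin3a, Grin2d and Grm5 were kept in every setting in which they were tested. Their log2 fold changes ran from -2.45 to -1.95, from -2.96 to -1.93 and from 4.96 to 6.68. Grin2a, at -1.34 to -0.99, lost its call only without Isl1CKO 2, 3 and 5. Grin2d was not tested at a mean of at least 5 CPM. The number of members lower was therefore 2 or 3, and 1 was higher throughout. The log2 fold change of Grin1, not called in any setting, changed sign to 0.13 without Isl1CKO 2, 3 and 5. It was -1.02 with the marker covariates. It ran from -0.37 to 0.15 with 1 library left out, being 0.079, 0.0032 and 0.15 without controls 1, 4 and 6 and 0.086, 0.061 and 0.095 without Isl1CKO 2, 3 and 6. The count over all genes, 1511, fell to 922 with the marker covariates and to 767 without Isl1CKO 2, 3 and 5. NMDA receptor partner calls, 2 with all libraries, were 0 without those 3. They ran from 1 (without control 5, control 6 or Isl1CKO 2) to 4 (without control 3) with 1 library left out. Same-numbered libraries did not deviate together (correlations of -0.055 to 0.14, best with their own number in 2 of 6 cases). With the replicate number as a block 1450 genes were called, 3 members lower and 1 higher, and the calls of Adcy6, Plcb3 and Slc1a6 were lost at -1.13, -1.28 and 2.22 on the log2 scale (adjusted p of 0.0570, 0.0523 and 0.0743 with edgeR), against -1.14, -1.21 and 2.22 without it. The block moved Grm7, not called, from 0.65 to 1.25 and Grm4 from 0.36 to 0.82. The call of Slc1a6 was also lost with no expression filter, with limma-voom and with the marker covariates, at 2.21, 2.08 and 2.30 (adjusted p of 0.0583 with edgeR, 0.0585 with limma and 0.117 with edgeR). The cause was not tested. At similar depth, control libraries held 4 to 61 counts of Grin1, 6 to 132 of Grm4 and 1 to 154 of Grm7, and Grin2b had at most 11 counts in any library. Level orders and the Grm2 bound without Isl1CKO 2, 3 and 5 were added after seeing the data.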

Other observations

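Grm2, which encodes a group II metabotropic receptor and is not among the members, had at most 3 counts in any control library. In Isl1CKO libraries 1 to 6 it had 1, 8, 42, 20, 48 and 24 counts, a mean of 1.78 ± 1.36 CPM (SD, n = 6). Taking 3 counts per control library as the floor, the Isl1CKO mean was at least 7.63-fold higher. Without Isl1CKO 2, 3 and 5 it was at least 4.86-fold higher (1.13 ± 0.929 CPM, SD, n = 3). These bounds leave out the spread among Isl1CKO libraries. The group ranges overlapped, since Isl1CKO 1, at 0.0792 CPM, lay within the control range of 0 to 0.250 CPM. Grm2 did not pass the expression filter. With no filter its log2 change was 3.81 ± 0.88 (SE; edgeR adjusted p = 0.0167), a value looked at after the counts were seen.

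Elfn1, which encodes an adhesion protein that recruits group III receptors across the synapse, was not tested for want of counts. Its mean was 0.290 ± 0.182 CPM in control and 1.47 ± 1.42 CPM in Isl1CKO libraries (SD, n = 6), with overlapping ranges.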
